A study of Saccharomyces cerevisiae with 2 samples.

Results

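The genes of the cytosolic ribosomal proteins were followed through genome conformation capture (GCC) networks of Saccharomyces cerevisiae. Members were the nuclear MspI fragments whose annotation names a gene called RPL or RPS, with a number and at most an A or a B. This gave 283 of the 13593 nuclear fragments outside the rDNA (2.08%), which together cover 353.96 kb. They carry 132 genes, 76 of the large subunit and 56 of the small subunit, and all 132 matched a RefSeq symbol of this form. Of the fragments, 252 overlap such a gene and 31 lie directly beside one.

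GCC cross-links chromatin, cuts it with MspI, ligates fragment ends that lie close together and counts the sequenced junctions of each fragment pair. The networks came from haploid BY4741 cells (his3Δ1 leu2Δ0 met15Δ0 ura3Δ0) in exponential growth at 30 °C to an OD600 of 0.6, in synthetic medium with glycerol and lactate (glycerol lactate, GL), which are respired, or with galactose (Gal), which is partly fermented. Each medium has 1 library in which 2 biological replicates were combined, which leaves no replicate error to report, and all intervals below cover counting error only. The uniquely mapped tables hold 3221104 counts for glycerol lactate and 2338837 for galactose. URA3, which the strain lacks, had 0 and 0 counts on its 2 fragments in glycerol lactate and 1 and 1 in galactose. Fragments named for the other 3 markers did not all lack counts. In glycerol lactate HIS3 had 437 and 439, LEU2 2 and 283, and MET17 (MET15) 326, 1 and 353. In galactose HIS3 had 378 and 335, LEU2 0 and 186, and MET17 215, 0 and 212. Which of these fragments lie inside the deletions was not determined.

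Each ribosome contains 1 copy of nearly every ribosomal protein, and yeast makes these proteins from genes scattered over its chromosomes. Rap1, Fhl1, Ifh1 and Sfp1 drive their transcription under the control of TOR and protein kinase A, together with RNA polymerase I transcription of the rDNA in the nucleolus. Many of the proteins are encoded by a pair of paralogues, named A and B, that descend from an ancient whole-genome duplication. The paralogues are often near-identical in coding sequence and differ more in introns and flanks.

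The member fragments were longer than the others, with a median of 793 bp against 564 bp, so each count was set against the mean of other nuclear fragments in the same of 20 length classes. Members lay on 15 of the 16 chromosomes. Chromosome IV had 39 of them, chromosome XII had 38 and chromosome I had 0. Only 1 member lay within 30 kb of a chromosome end (0.353%), against 8.02% of the other fragments. A and B copies exist for 57 proteins, whose 114 genes accounted for 238 member fragments. The other 45 fragments belong only to the 18 single-copy genes. In 4 cases both copies are on 1 chromosome, namely RPL19 on II, RPL24 on VII, and RPL35 and RPL41 on IV.

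As a group, the ribosomal protein genes made about as many contacts as fragments of like length. Between chromosomes, members had 9177 counts in GL, 1.04 times the length-matched number (95% Poisson interval 1.02 to 1.06). In Gal they had 15574 counts, 0.957 times that number (0.942 to 0.972). The median member stood at 1.0 times its class mean in GL and 0.982 times in Gal, while the medians of other fragments were 0.976 in GL and 1.02 in Gal. Of the members, 49.5% exceeded the median of their length class in GL and 42.8% in Gal, against 46.7% (GL) and 48.7% (Gal) of other fragments. The small excess in GL depended on the fragments used. It was 0.996 over the 158 members that carry no other gene (0.962 to 1.03), and 1.02 with an interval of 0.995 to 1.04 after removal of the 30 kb at each chromosome end. That removal took out 1 member, the RPL8A fragment. The longest length class, from 2869 bp, has no upper bound, so its longest members are not matched at their own length. With all mapped sequences it turned to 0.657, while 76.3% of members and 47.8% of other fragments exceeded their class median.

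**Figure D1:**
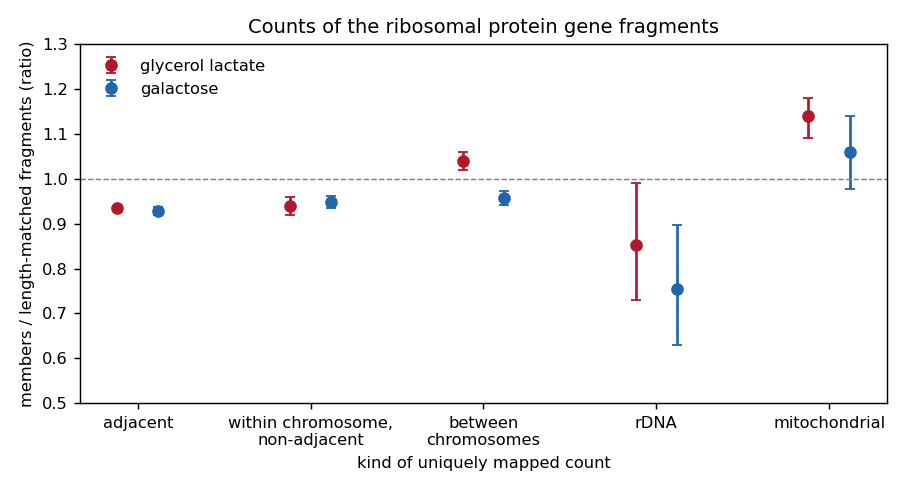
Ratio of the members' summed uniquely mapped counts to the number from length-matched nuclear fragments (y axis) for 5 kinds of count (x axis), in glycerol lactate (left point) and galactose (right point), with 95% Poisson intervals for counting error. Most ratios lie between 0.9 and 1.15, and the rDNA ratios are the lowest, at 0.852 in glycerol lactate and 0.754 in galactose.

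Within chromosomes, the summed counts between non-adjacent fragments were slightly below the length-matched number, but not in every reading of the data. Members had 8686 such counts in GL, a ratio of 0.94 (0.92 to 0.96), and 19336 in Gal, a ratio of 0.948 (0.935 to 0.962). The median member in GL was at 0.463 times its class mean against 0.45 for other fragments, and in Gal at 0.903 against 0.966. With each pair taken once the ratio was 1.01 in GL and 0.976 in Gal, for pairs at least 20 kb apart it was 1.02 in GL and 0.974 in Gal, and as a share of each fragment's own total it was 1.0 in both. Ligation to the adjacent fragment had ratios of 0.934 in GL and 0.928 in Gal. In GL the shortfall was found at separations under 2 kb, with 5808 counts and a ratio of 0.91 (0.887 to 0.934), whereas the intervals of all 8 longer ranges included 1. In Gal the ratio was 0.903 under 2 kb, 0.895 from 2 to 5 kb and 0.94 from 5 to 10 kb, and then 1.0 from 10 to 20 kb. Beyond that the Gal ratios ran between 0.928, at 50 to 100 kb, and 1.08, at 100 to 200 kb.

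Summed within-chromosome counts of non-adjacent fragments were lower relative to length for genes with a paralogue than for those without. The 238 fragments of A and B copies had a within-chromosome ratio of 0.828 in GL (0.808 to 0.849) and 0.911 in Gal (0.897 to 0.925). The 45 single-copy fragments had 1.53 in GL (1.47 to 1.59) and 1.16 in Gal (1.12 to 1.2). Fragments named for RPS3 and RPL28, singled out after their values were seen, held 759 (RPS3) and 494 (RPL28) of the 2243 single-copy counts in GL. Of the 10 fragments named for RPS3, only 3 overlap the gene, and these had 65 counts in GL (0.605). The other RPS3 counts were on fragments beside it. A junction between non-adjacent fragments named for the same gene enters these sums at both ends. Without the fragments named for RPS3 or RPL28, the remaining 30 single-copy fragments were at 1.02 in GL (0.959 to 1.09) and 1.07 in Gal (1.02 to 1.11). The GL medians were 0.607 for single-copy fragments, 0.428 for A and B copies and 0.45 for other nuclear fragments. Adjacent counts showed the same order, with 0.907 in GL and 0.892 in Gal for A and B copies, and 1.08 in GL and 1.12 in Gal for single-copy genes. Uniquely mapped reads are scarcer where copies share sequence, and the part of this in the difference was not tested. Large subunit genes had between-chromosome ratios of 1.05 in GL and 0.983 in Gal, and small subunit genes 1.01 in GL and 0.924 in Gal.

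In the members with the highest within-chromosome values, a single nearby fragment held between 25.9% and 93.3% of the counts. RPS1B encodes a small subunit protein, and its 886 bp fragment (chromosome XIII, 146303 to 147188) had 231 counts in GL (6.88 times the class mean) and 211 in Gal (2.61 times). Of the 231 counts in GL, 106 (45.9%) joined it to another RPS1B fragment only 39 bp away. RPL7A (chromosome VII, 363892 to 366154) had 163 counts in GL, of which 152, or 93.3%, joined it to a fragment of HNM1. The last base of that fragment lies 18 bp before the first base of the RPL7A fragment. RPL3 lines the peptidyl transferase centre of the ribosome, and its fragment on chromosome XV had 153 counts in GL and 193 in Gal. In Gal 111 of those (57.5%) reached a second RPL3 fragment 5 bp away. The lowest share was that of RPL15B in Gal, where 38 of 147 counts joined it to another RPL15B fragment. All 6 of the strongest partners examined in this way were separated from the member by 1 or 2 short fragments.

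**Figure D2:**
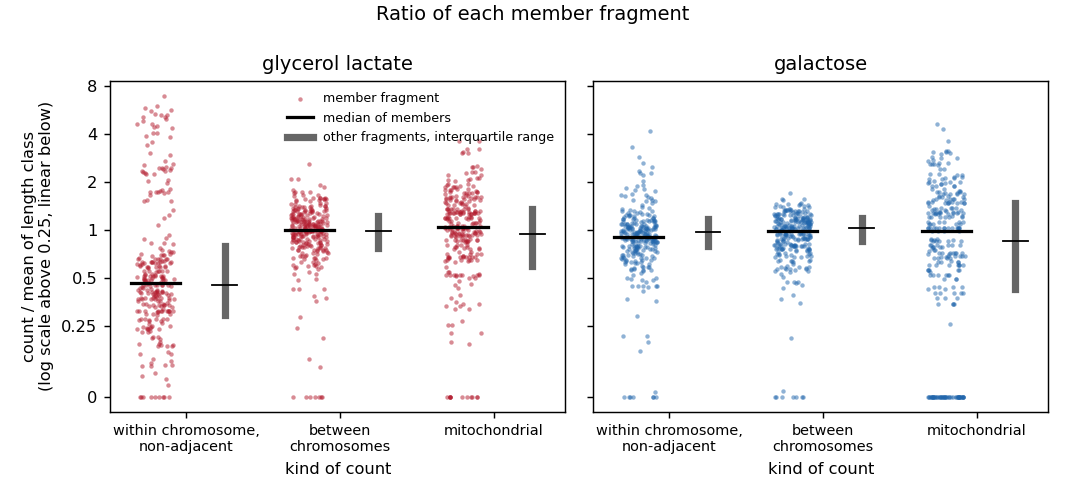
Each point is the count of 1 member fragment over the mean of its length class (y axis, log scale above 0.25), by kind of count (x axis), for glycerol lactate (left panel) and galactose (right panel). Horizontal bars give medians of members, and grey bars the interquartile range of other nuclear fragments with their median. Members and other fragments largely overlap, and the widest spread is that of within-chromosome counts in glycerol lactate, which reach 6.88.

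Among the individual genes, the between-chromosome ratio varied around 1 with few extremes. Over the 132 genes it ran from 0.311 to 2.09 in GL, with a median of 1.05, and from 0.322 to 1.69 in Gal, with a median of 0.994. Only 2 genes reached 2 in GL and 0 did in Gal. RPL20B is on a 9161 bp fragment of chromosome XV (894097 to 903257) shared with HSD1, NOP58, SNU66 and SPS4, and had 142 counts in GL and 106 in Gal (ratios of 2.09 in GL and 1.31 in Gal). RPL8A is on a 7726 bp fragment of chromosome VIII (29556 to 37281) shared with GUT1, SBP1 and VMR1. It had 141 counts in GL (2.08) and 137 in Gal (1.69), and is the only member within 30 kb of a chromosome end. Both belong to the longest length class, which starts at 2869 bp, has no upper bound and has a median of 3600 bp, so these ratios are not matched at their own length. The 14 other nuclear fragments of at least 7000 bp averaged 111.0 ± 38.4 counts in GL and 108.0 ± 33.6 in Gal (SD over fragments). RPL8B, the paralogue of RPL8A, was also among the highest in Gal, with 33 counts in GL (1.48) and 83 in Gal (1.56) on a 415 bp fragment beside the gene.

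Further fragments ranked high at other lengths. RPS2 encodes a protein of the decoding region, and its 834 bp fragment on chromosome VII had 47 counts in GL, 1.78 times the class mean, and 48 in Gal, 0.842 times. A 414 bp fragment of RPL14A had 41 counts in GL (1.84) and 68 in Gal (1.28). RPL2B, whose protein lies in the peptidyl transferase region, had 117 in GL (1.73) and 106 in Gal (1.31) on a 5823 bp fragment, also of the longest class, shared with FAF1, HIS6, RPB3 and TIM44. Fragments of RPL16A (1870 bp) had 46 counts in GL (1.07) and 107 in Gal (1.53), and of RPL27A (1888 bp) 35 in GL (0.811) and 103 in Gal (1.47). That of RPS9B, 2598 bp long and shared with GDT1, NTC20 and PCH2, had 67 in GL (1.4) and 103 in Gal (1.45). RPL8A was the only one of the 5 highest members in both media.

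By chromosome, members on IX were above the length-matched number in both media, with ratios of 1.16 (1.06 to 1.28) in GL and 1.13 (1.05 to 1.22) in Gal. Those on VIII had 1.11 in GL and 1.11 in Gal. Members on IV were below it in both, at 0.936 in GL (0.881 to 0.994) and 0.835 in Gal (0.797 to 0.874). The 22 members on XV stood at 1.23 in GL (1.15 to 1.32) and at 1.02 in Gal (0.968 to 1.08). The length-matched fragments came from all chromosomes. Whether other fragments of the same chromosome have like ratios was not tested. The ratios also include long fragments of the longest length class, which are not matched at their own length. In GL its mean was 67.8, and the RPL8A fragment held 141 of 578 counts on VIII. The 5823 bp RPL2B fragment held 117 of 433 on IX, and RPL20B 142 of 825 on XV. In Gal, with a class mean of 80.9, they held 137 of 985, 106 of 699 and 106 of 1313.

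Among the lowest members were fragments of equal length inside both copies of a duplicated gene. RPL4 lines the exit tunnel for the growing peptide, and each of its copies has a 312 bp fragment. RPL4A (chromosome II, 300420 to 300731) had 2 between-chromosome counts in GL and 1 in Gal. RPL4B (chromosome IV, 472104 to 472415) had 0 in GL and 0 in Gal, which for counting error alone allows up to 3 uniquely mapped counts in each. That bound does not cover contacts whose reads map to more than 1 place. The length-matched mean of their between-chromosome counts was 19.5 in GL and 49.3 in Gal. Also low were a fragment of RPS4A in GL, with 3 counts (0.134), and a fragment beside RPS3 in Gal, with 17 counts (0.349).

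The RPL4 fragments were not short of reads when every alignment was kept. With all mapped sequences, the RPL4A fragment had 1063 between-chromosome counts in GL and 1015 in Gal, and the RPL4B fragment had 1054 in GL and 994 in Gal. Joined to each other, they held 785 counts in GL and 784 in Gal. In all, 7 A and B fragment pairs of 5 proteins, RPL2, RPL4 and RPS4 among them, have equal length. Their 14 fragments had 0.217 times the length-matched between-chromosome counts in GL and 0.271 times in Gal, and the pairs themselves had 0 uniquely mapped counts in either medium. No uniquely mapped count of any kind was found for 2.12% of members in GL and 2.47% in Gal, close to the 2.67% (GL) and 2.77% (Gal) of other nuclear fragments.

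The contrast between the mappings divided paralogues from single-copy genes. Of the members with at least 20 between-chromosome counts in all mapped sequences, 139 of 264 had at least 2 times as many of them as in uniquely mapped sequences in GL (52.7%), against 17.6% of all nuclear fragments. In Gal it was 125 of 282 members (44.3%), against 10.5% of all. For A and B copies the shares were 59.9% in GL and 51.7% in Gal, while 8.11% of the single-copy members passed in GL and 4.55% in Gal. Summed over fragments, A and B copies had 10.8 times as many counts in all mapped sequences in GL and 6.77 times in Gal, and single-copy members 1.94 times in GL and 1.54 times in Gal. Other nuclear fragments had 11.9 times in GL and 6.4 times in Gal, close to the A and B copies.

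Contacts among the members themselves were few, and paralogues held more of them than their totals gave. In GL 145 uniquely mapped counts over 127 pairs joined members on different chromosomes, 1.26 times the 114.9 that the products of their between-chromosome totals gave (1.06 to 1.48). In Gal 160 counts over 152 pairs stood against 164.9, a ratio of 0.97 (0.826 to 1.13). The A and B copies of 1 protein had 41 of these counts in GL (28.3%), on 31 of 280 possible fragment pairs, against 0.8203 from totals, which is 50.0-fold (35.9 to 67.8). In Gal they had 26 counts (16.2%) on 19 pairs against 1.173, or 22.2-fold (14.5 to 32.5). All other member pairs were at 0.912 of the number from totals in GL (104 counts, 0.745 to 1.1) and at 0.819 in Gal (134 counts, 0.686 to 0.969). Members of different proteins on different chromosomes were not joined more often than their totals gave in either network.

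**Figure D3:**
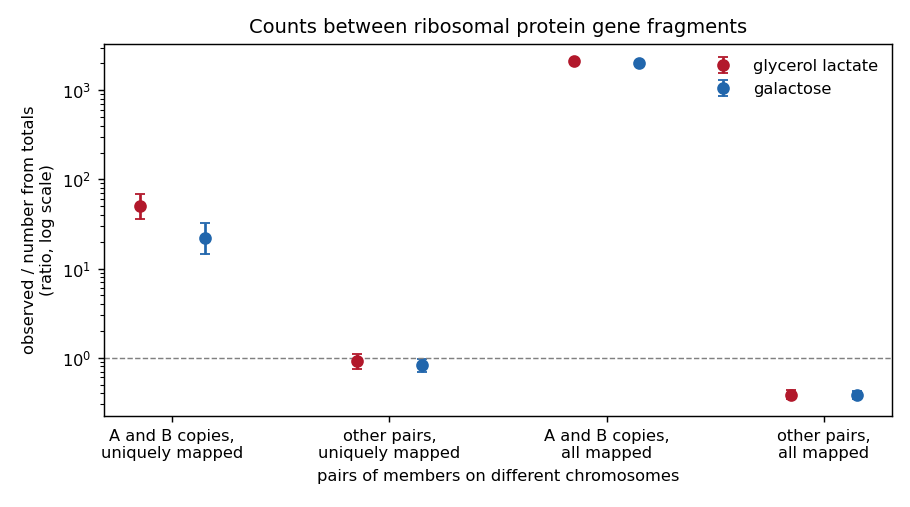
Observed counts over the number from fragment totals (y axis, log scale) for pairs of members on different chromosomes, split into A and B copies of 1 protein and all other pairs and by mapping (x axis), in glycerol lactate (left point) and galactose (right point), with 95% Poisson intervals. A and B copies stand at 50.0 in glycerol lactate and 22.2 in galactose with uniquely mapped sequences and above 2000 with all mapped sequences, and other pairs lie below 1.

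The strongest uniquely mapped pair between chromosomes was that of the RPS26 genes, whose protein sits at the mRNA exit channel. RPS26B (chromosome V, 423718 to 424765) and RPS26A (chromosome VII, 147886 to 149210) shared 4 counts in GL and 0 in Gal. RPL13A and RPL13B had 3 counts in GL and 0 in Gal, and RPL20A and RPL20B had 2 in GL and 2 in Gal. RPS23A and RPS23B, which encode a protein of the decoding centre, formed the highest pair in Gal, with 0 counts in GL and 3 in Gal. The highest pair of unrelated genes was RPL27A with RPS27A at 3 counts in GL and 0 in Gal. Only 7 pairs occurred in both media, 5.51% of those in GL and 4.61% of those in Gal, and all 7 were paralogue pairs.

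With all mapped sequences the paralogues took nearly every count among members. A and B copies had 26980 of 27298 counts in GL (98.8%) and 26058 of 26391 in Gal (98.7%). The remaining pairs had 318 counts in GL against 823.4 from totals (0.386) and 333 in Gal against 874.0 (0.381). The largest of these remaining pairs also joined related sequences, since RPL40A, RPL40B and RPS31 all encode ubiquitin fused to a ribosomal protein. RPL40A with RPS31 had 63 counts in GL and 52 in Gal, and RPL40B with RPS31 had 60 in GL and 57 in Gal. The highest pair of other genes had 6 counts in GL and 3 in Gal.

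Per protein, the A to B counts in all mapped sequences had nearly the same size in both media. They were above 0 for 52 of 57 proteins in each, and at least 100 for 41 in each. RPL4 was highest with 2966 in GL and 2953 in Gal, followed by RPS4 with 2132 in GL and 2055 in Gal, and RPL1 with 2026 in GL and 1964 in Gal. RPL16, RPL22, RPL33 and RPS27 had 0 in both. Over the 57 proteins the log2 counts of the media had a Pearson correlation of 0.993, a description across genes that share the reference sequence.

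Uniquely mapped A to B counts were recorded for 28 proteins in GL and 18 in Gal, of which 10 had them in both. A further 21 had them in neither. Their highest values were 4 for RPS26 in GL and 5 for RPS23 in Gal. Of the 31 uniquely mapped A to B pairs between chromosomes in GL, 27 had at least 10 counts in all mapped sequences, with a median of 146. In Gal it was 15 of 19, with a median of 163. By contrast 0 of the 96 other pairs in GL and 0 of the 133 in Gal reached 10. Counts in all mapped sequences moved with these uniquely mapped contacts, sequence similarity was not measured, and its part in them was not tested. For 4 other A and B gene pairs outside the set, COX5, NHP6, RPP1 and RPP2, there were 0 counts in both media with either mapping. RPP1A and RPP1B are on the same chromosome. Neither a number from totals nor the sequence similarity of these pairs was determined. With so few pairs, these zeros cannot tell whether such contacts are particular to ribosomal protein genes.

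**Figure D4:**
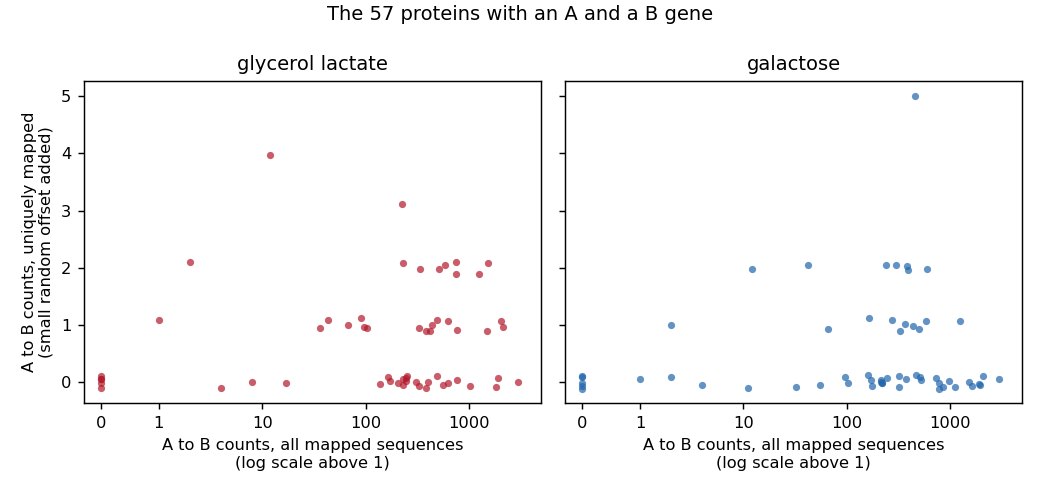
For each of the 57 proteins with 2 genes, the counts between its A and B fragments in uniquely mapped sequences (y axis, with a small random offset) against those in all mapped sequences (x axis, log scale above 1), in glycerol lactate (left panel) and galactose (right panel). All mapped counts reach 2966, uniquely mapped ones 5, and RPS26 in glycerol lactate has 4 uniquely mapped of 12 counts.

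Some ribosomal protein genes are neighbours, and several neighbourhoods exist in 2 copies because the duplication kept both genes. Distances here are between the MspI fragments that overlap the genes, from the last base of the first to the first base of the next. Those between the genes were not measured. Fragments of RPL2A and RPL29 on chromosome VI abut and had 280 adjacent counts in GL and 137 in Gal, besides 6 non-adjacent ones in GL and 5 in Gal. Those of RPL13A and RPS16B on IV likewise abut, with 213 adjacent counts in GL and 135 in Gal. Those of RPL13B and RPS16A on XIII are 161 bp apart and had 3 counts in GL and 3 in Gal. Those of RPL35B and RPL41B on IV are 2578 bp apart and had 0 counts in GL and 5 in Gal, of which 4 were on a fragment pair 3371 bp apart.

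Between the media, the kinds of count shifted in the members much as they did in the rest of the genome. Adjacent ligation took 81.6% of member counts in GL (exact binomial 95% interval 81.3 to 81.8) and 56.3% in Gal (55.9 to 56.6). Other within-chromosome counts took 7.83% in GL and 23.1% in Gal, and between-chromosome counts 8.27% in GL and 18.6% in Gal. Over other fragments the adjacent shares were 83.6% in GL and 58.3% in Gal, and the between-chromosome shares 6.46% in GL and 17.3% in Gal. The ratio of the media for the between-chromosome share was 0.444 in members (0.432 to 0.455) and 0.372 in other fragments (0.371 to 0.374). Members are longer than the others, and these shares are not length-matched.

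Scaled to the between-chromosome total of each library, most members differed little between the media. Of 273 members with at least 20 counts over both, 29 differed by 2-fold or more (10.6%), against 10.8% of all 12951 nuclear fragments tested. In 14 GL was higher (5.13%, against 2.43% of all), and in 15 Gal was higher (5.49%, against 8.41%). The median ratio of GL over Gal was 1.07 in members and 0.906 in all fragments, and it ran from 0.201 to 2.69 in members. These directions depended on the scaling and the mapping. Of 195 members that differed when counts were scaled to the whole library, GL was higher in 0 and Gal in 195, and with all mapped sequences GL was higher in 0 and Gal in 44, whereas at 1.5-fold GL was higher in 56 and Gal in 33.

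The median ratio of GL over Gal rose with fragment length, in members and in others alike. For members under 300 bp the median ratio was 0.755, and 11 of 58 were at least 2-fold higher in Gal (19.0%, against 20.5% of other fragments of this length). From 300 to 1000 bp it was 0.912, from 1000 to 3000 bp 1.27, and above 3000 bp 1.71, where 6 of 24 were at least 2-fold higher in GL, against 127 of 562 others (22.6%), and 0 in Gal. Other nuclear fragments had medians of 0.711, 0.855, 1.15 and 1.67 in the same ranges. The called shares were less alike in short fragments. Under 300 bp, GL was at least 2-fold higher in 2 of 58 members (3.45%, against 0.798% of others). From 300 to 1000 bp it was 3 of 90 (3.33%, against 0.509%), and from 1000 to 3000 bp 3 of 101 (2.97%, against 3.55%). Whether length itself accounts for single genes was not tested.

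**Figure D5:**
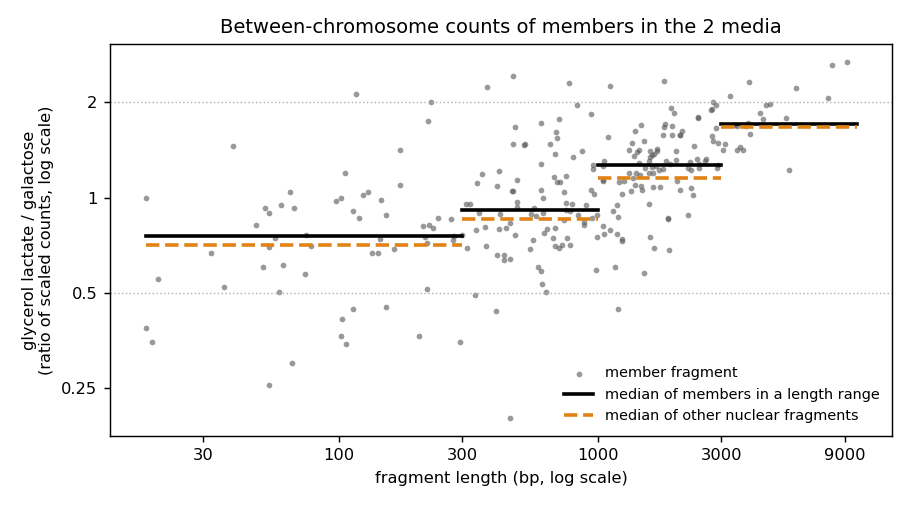
Between-chromosome counts of each member in glycerol lactate over galactose, scaled to the library totals (y axis, log scale), against fragment length (x axis, log scale), for the 273 members with at least 20 counts. Black lines are medians of members in 4 length ranges and dashed orange lines those of other nuclear fragments, and both increase with length, with members between 0.755 and 1.71. Dotted lines mark 2-fold.

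The members with the largest difference followed that order. RPL20B on its 9161 bp fragment had 142 counts in GL and 106 in Gal, a scaled ratio of 2.69. RPL12B, which encodes a protein at the base of the ribosomal stalk, had 106 counts in GL and 81 in Gal on 8003 bp (2.63). RPL20A had 71 in GL and 61 in Gal (2.34), and RPS24A had 66 in GL and 57 in Gal (2.32). A 470 bp fragment beside RPS3 was a shorter exception, with 35 counts in GL and 29 in Gal (2.42). At the other end, RPS4A had 3 counts in GL and 30 in Gal on a 459 bp fragment (0.201), which is 1 of the equal-length paralogue fragments. RPL15B had 6 counts in GL and 47 in Gal on 54 bp (0.256), and RPL2A had 7 in GL and 47 in Gal on 66 bp (0.299). RPS22B had 6 in GL and 35 in Gal on 107 bp (0.344), and RPS6B 4 in GL and 23 in Gal on 294 bp (0.349).

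Contacts with mitochondrial DNA were somewhat more frequent in members than in length-matched fragments, and much more frequent in GL than in Gal. Members had 2191 such counts in GL, a ratio of 1.14 (1.09 to 1.18), and 649 in Gal, a ratio of 1.06 (0.978 to 1.14). The GL ratio turned to 0.98 with all mapped sequences (0.945 to 1.02) and to 0.886 when counts were taken per kb. They made up 1.97% of member counts in GL (1.89 to 2.06) and 0.777% in Gal (0.718 to 0.839). The ratio of these shares was 2.54 in members (2.33 to 2.78) and 2.39 in other fragments (2.36 to 2.42). The fragments of mitochondrial ribosomal protein genes, which encode the organelle's own ribosome, had 1.2 times their length-matched number in GL (1.13 to 1.27) and 1.28 times in Gal (1.15 to 1.4).

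The counts were spread thinly over the genes. In GL a member had a median of 7 mitochondrial counts and at most 26, and in Gal a median of 2 and at most 10. The highest relative to length in GL were RPS15 (18 counts, 3.04 times the class mean), RPL15B (18 counts, 3.01) and RPL24B (16 counts, 2.52). In Gal the fragments of RPS15 and RPL15B had 1 count each and that of RPL24B had 3. Another 3 fragments led in Gal. RPS25B had 10 counts in GL (1.29) and 9 in Gal (3.59), RPS0A 8 in GL (1.28) and 6 in Gal (3.1), and RPL32 8 in GL (1.28) and 6 in Gal (3.1). The RPL32 fragment is shared with SCS22, and that of RPS0A with RSM27, a mitochondrial ribosomal protein gene. The RPS0A fragment thus belongs to both the cytosolic and the mitochondrial group, and its counts cannot be assigned to either gene.

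Single mito-nuclear pairs with 3 or more counts were found for 32 members in GL (11.3%), against 8.36% of all nuclear fragments, and for 1 member in Gal (0.353%), against 0.552%. Members are longer than the others, and these shares are not length-matched. Set against length-matched fragments, the counts in such pairs had ratios of 1.21 in GL (1.0 to 1.45) and 0.363 in Gal (0.0749 to 1.06). In GL 37 such pairs held 117 counts, and the 6 largest had 4 counts each. These were pairs of RPL19B with a COX1 fragment, RPL12B with COX3, RPL42B with COB, and RPS14A, RPS26B and RPL17B with fragments that carry no named gene. COX1 and COX3 are subunits of cytochrome c oxidase and COB is cytochrome b. Each of these 6 pairs had 0 counts in Gal. Fragments named for RPS26B appeared in 5 of the 37 pairs. The only such pair in Gal was that of RPL16B with a COX1 fragment, with 0 counts in GL and 3 in Gal.

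Contacts with the rDNA, which on chromosome XII (451474 to 469370) covers 46 fragments, were too few to rank genes. Members had 170 counts in GL, 0.852 of the length-matched number (0.729 to 0.99), and 129 in Gal, 0.754 of it (0.63 to 0.896). No rDNA count was found for 177 members in GL (62.5%, against 68.8% of others) and 189 in Gal (66.8%, against 68.4%). Members thus had an rDNA count somewhat more often than other fragments, which are shorter, while their summed counts were below the length-matched number. Above the median of their length class were 35.0% of members in GL and 33.2% in Gal, against 29.8% (GL) and 31.6% (Gal) of others. With each pair taken once instead of its counts, the ratios were 1.11 in GL (0.92 to 1.32) and 0.974 in Gal (0.796 to 1.18). RPL20B had 6 rDNA counts in GL and 2 in Gal. RPL43A had 4 in GL and 7 in Gal, RPS2 had 5 in GL and 1 in Gal, and RPS17A had 5 in GL and 1 in Gal, of which 4 in GL and 0 in Gal were on its 407 bp fragment. A 337 bp fragment beside RPL41B had 3 in GL and 0 in Gal, and RPS15 had 0 in GL and 3 in Gal. RPS31, on the rDNA's own chromosome, had 1 in GL and 6 in Gal over both of its fragments.

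Genes that work with the members were close to their length-matched numbers between chromosomes, but not for every kind of count. The ribosomal stalk genes RPP0, RPP1A, RPP1B, RPP2A and RPP2B together with ASC1, on 18 fragments, had between-chromosome ratios of 1.04 in GL (0.944 to 1.13) and 0.972 in Gal (0.911 to 1.04). Their within-chromosome ratios were 1.21 in GL (1.13 to 1.3) and 1.08 in Gal (1.02 to 1.14), and their mitochondrial ratios 1.25 in GL (1.04 to 1.48) and 0.807 in Gal (0.532 to 1.17). Within that list RPP2A was highest with 46 counts in GL (1.43) and 102 in Gal (1.65). The 10 regulators (RAP1, FHL1, IFH1, CRF1, SFP1, HMO1, ABF1, SCH9, TOR1 and TOR2), on 41 fragments, had 1.05 in GL (0.992 to 1.11) and 1.0 in Gal (0.963 to 1.04). The regulators had within-chromosome ratios of 0.714 in GL (0.67 to 0.76) and 1.05 in Gal (1.01 to 1.09), and mitochondrial ratios of 0.918 in GL (0.809 to 1.04) and 1.16 in Gal (0.943 to 1.41). Their rDNA ratio was 3.05 in GL (2.44 to 3.78) and 2.41 in Gal (1.84 to 3.11), while the median over fragments was 0 in both. RAP1, singled out after its values were seen, held 65 of the 85 rDNA counts in GL and 35 of the 59 in Gal. Mitochondrial ribosomal protein genes, 65 genes on 143 fragments, had between-chromosome ratios of 1.07 in GL (1.04 to 1.1) and 1.05 in Gal (1.03 to 1.07), beside 1.04 in GL and 0.957 in Gal for the cytosolic genes.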

How the data were processed

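MspI fragment pair counts of 1 GCC library per medium (2 biological replicates combined) were used. The authors positioned paired reads with SOAP without mismatches and assembled the networks with Topography 1.19, and deposited raw counts, without normalization, for uniquely mapped and for all mapped sequences. Total counts in the 4 tables were read with each pair counted once. In counts per fragment, a pair of nuclear fragments was counted at each of its ends. A junction between members thus entered the members' sums at both ends, as did a junction between other fragments in theirs. The genome version is the one named in the tables, and positions are given 1-based as in those tables.

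Members were found in the annotation column, including fragments listed as neighbours of a gene. Expected numbers were sums of length class means (20 classes) of other nuclear fragments outside the rDNA, or products of fragment totals for contacts among members. Intervals are exact Poisson for counts, exact binomial for shares and on the log scale for ratios of shares, at 95%, and treat ligation products as independent. They make no allowance for junctions that entered a sum at both ends, and are too narrow to that extent. With 1 library per medium no test of the media was possible. Scripts were tested on simulated data. Genes named are, per medium, the 5 highest and 5 lowest between-chromosome ratios (fragments of at least 300 bp), the 3 highest for rDNA, mitochondrial and within-chromosome counts, the top pairs and the 5 largest differences between media in each direction, together with list genes. Members and lists were chosen with earlier results of these data known. Alternatives covered mapping, length correction, distinct pairs, background, chromosome ends, thresholds and scaling, and 4 were added after the data were seen. The glucose library and sequences were not analysed here. Some genes that the naming rule selects are not reported here. Tools were numpy 2.4.6, scipy 1.17.1, pandas 2.3.3 and matplotlib 3.10.9 under Python 3.11.15.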

Additional observations from a re-analysis of the deposited data

Results flagged for a closer look

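The between-chromosome counts of ribosomal protein gene fragments lay on opposite sides of the length-matched number in the media, at 1.04 times in glycerol lactate (9177 counts) and 0.957 times in galactose (15574 counts). The intervals for counting error did not overlap (1.02 to 1.06 against 0.942 to 0.972). With 1 library per medium the difference was not tested. Members of the longest length class, RPL20B, RPL12B, RPL8A and RPL2B among them, are not matched at their own length. Other nuclear fragments of at least 7000 bp averaged 111.0 counts in glycerol lactate, against a class mean of 67.8. In galactose they averaged 108.0 against 80.9. The part of this mismatch in the difference was not tested.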

How the results depend on the processing

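With all mapped sequences the glycerol lactate (GL) ratio reversed between chromosomes (0.657) and for mitochondrial DNA (0.98). It was 0.687 in GL and 0.772 in galactose (Gal) within chromosomes and 0.316 in GL and 0.303 in Gal for the rDNA, and the Gal ratios were 0.666 between chromosomes and 0.727 for mitochondrial DNA. Contacts among members were then 32.6 in GL and 29.8 in Gal, and 0.386 in GL (reversed) and 0.381 in Gal without A and B copies. Leaving A and B copies out of uniquely mapped sequences gave 0.912 in GL (reversed) and 0.819 in Gal. Counts per kb in place of length classes gave, between chromosomes, 0.858 in GL (reversed) and 0.723 in Gal. Within them they gave 0.647 in GL and 0.69 in Gal, and for mitochondrial DNA 0.886 in GL (reversed) and 0.836 in Gal. Distinct pairs gave 1.01 in GL (reversed) and 0.976 in Gal within chromosomes, and 1.11 in GL (reversed) and 0.974 in Gal for the rDNA. Fragments without another gene gave 0.996 in GL (reversed) and 0.899 in Gal between chromosomes, 0.863 in GL and 0.897 in Gal within them, and 1.52 in GL and 0.628 in Gal among members. Without chromosome ends the ratios were 1.02 in GL and 0.935 in Gal between chromosomes and 0.9 in GL and 0.912 in Gal within them. Shares of each fragment's own total reversed the within-chromosome ratio in both media and the between-chromosome ratio in Gal, each to just above 1.0. Pairs at least 20 kb apart gave 1.02 in GL (reversed) and 0.974 in Gal, and mitochondrial pairs of at least 3 counts 1.21 in GL and 0.363 in Gal. Fragments overlapping a gene gave 0.858 in GL and 0.929 in Gal within chromosomes. Set against other fragments with a named gene they gave 0.854 in GL and 0.913 in Gal, and 1.02 between chromosomes in GL. All members against that background gave 0.934 within chromosomes in Gal. The number of members that differed between media was 89 at 1.5-fold (32.6%, against 32.5% of all fragments), 44 with all mapped sequences (15.5%, against 38.8%) and 195 when scaled to all counts (71.4%, against 85.4%). The cause of these differences was not tested. Using 10 length classes, leaving out chromosome XII for the rDNA, taking the number among members from length classes, or minimums of 10 or 40 counts moved no ratio beyond its counting interval and no count by 1.5 times.

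No paired analysis was possible because each medium has 1 library of combined replicates, and for the same reason leaving out a replicate could not be done. Depth limits the rDNA counts, the mitochondrial pairs in Gal and the pairs among members, of which the largest uniquely mapped one between chromosomes had 4 counts.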
